A study of Mus musculus with 3 samples.

Results

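The TNF superfamily ligands described here are 8 genes, Tnfsf11 (RANKL), Tnfsf8 (CD30 ligand), Tnfsf14 (LIGHT), Cd70, Cd40lg, Tnf, Lta and Ltb, among 32285 gene rows of the deposited single-cell matrices. They were chosen by symbol, and all 8 have a row in both the kidney and the spleen matrix. Their levels were followed in CD4+ T cells of kidney and spleen, in mice with and without an inducible Cre directed against Ezh2, with earlier results of these data known.

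These ligands are trimeric proteins, held in the membrane of the cell that makes them or released from it, that bind receptors of the TNF receptor superfamily on a neighbouring cell. The receptors recruit TRAF adaptors or death-domain adaptors and so switch on NF-kB, MAP kinase or cell-death signalling. In CD4+ T cells the ligands carry help to B cells (CD40 ligand), signals to osteoclast precursors and dendritic cells (RANKL), signals that organise lymphoid tissue (lymphotoxins) and inflammatory signals to many cells (TNF). Ezh2, the targeted gene, encodes the methyltransferase of Polycomb repressive complex 2, which places the repressive H3K27me3 mark.

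All mice were homozygous for a loxP-flanked Ezh2 allele on the lupus-prone MRL/lpr background, reached by 6 generations of crossing to a stated 99.8% MRL/lpr. The lpr change lies in Fas, a receptor of the same superfamily. Mice without Cre, genotype Ezh2fl/fl, are called WT after the deposited tag key, and mice that also carried CD4-Cre/ERT2, a tamoxifen-dependent Cre driven by Cd4 sequences, are called KO. Both received tamoxifen by gavage (300 mg/kg on 3 days of every other week) up to 24 weeks of age, from week 10 in a preventative or week 14 in a therapeutic scheme, and the files do not say which mouse followed which scheme. Sorted CD4+ T cells were marked with TotalSeq-C antibody tags, which carry a barcode for each mouse and organ, and transcript 5' ends were sequenced. The tag key lists 9 mice, and 5 of them, KO1, KO2, WT1, WT2 and WT3, have cells of both organs in first-day blocks of barcodes that each carry 1 leading tag. Cells of the second day stood under several mice and both organs at once and entered no comparison.

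After filtering, 13337 first-day cells formed 16 clusters, 6 of which took a cell-class name from their markers, and no barcode was shared between the first-day blocks. The other clusters go by number. Clusters led by CD8 T-cell genes or by kidney tubule and myeloid genes (573 cells) were left out, which left 12764 cells in 10 sums of 160 to 2339 cells and 663010 to 9765982 UMIs (unique molecular identifiers, 1 per captured transcript). The CD4 T identity markers were all detected in every sum. Ezh2 was below every WT mouse in both KO mice, at 83.5 and 66.1 CPM against 102, 163 and 144 CPM in kidney, and at 51.0 and 54.5 against 70.1, 170 and 156 CPM in spleen, in the order KO1, KO2 and WT1, WT2, WT3. WT1 was the WT mouse nearest to the KO mice, and the Ezh2 differences did not pass the edgeR test (log2 -0.75, adjusted p = 0.520 in kidney, and -1.29, adjusted p = 0.195 in spleen). Without WT1 they passed in both organs (edgeR adjusted p = 0.00594 in kidney and 0.000468 in spleen). CPM are counts scaled by TMM to a common library total, and this order of mice is kept throughout.

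The 8 genes lie on 4 chromosomes of GRCm38.p6. Ltb, Tnf and Lta are neighbours on chromosome 17, at 35194507 to 35196305, 35199367 to 35202007 and 35203165 to 35205578. Cd70 (57145997 to 57149777) and Tnfsf14 (57189474 to 57194181) lie further along the same chromosome. Tnfsf8 is on chromosome 4 (63831202 to 63861508), Tnfsf11 on chromosome 14 (78277446 to 78308043) and Cd40lg on the X chromosome (57212143 to 57224042). The 250 bases before the start of Tnfsf11, Ltb and Tnf are shown because the kidney and spleen comparison turns on these genes. They are RefSeq sequence of GRCm38.p6, read 5' to 3' on the gene's own strand, and capitals mark every match to a searched motif on either strand. The window of Tnfsf11 is chr14:78308044-78308293 on the minus strand, that of Ltb chr17:35194257-35194506 on the plus strand and that of Tnf chr17:35202008-35202257 on the minus strand.
Tnfsf11: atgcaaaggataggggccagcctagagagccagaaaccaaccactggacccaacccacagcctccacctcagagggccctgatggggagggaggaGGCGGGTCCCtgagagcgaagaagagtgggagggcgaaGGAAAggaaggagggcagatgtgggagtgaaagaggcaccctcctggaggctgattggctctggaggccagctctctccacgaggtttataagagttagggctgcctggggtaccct
Ltb: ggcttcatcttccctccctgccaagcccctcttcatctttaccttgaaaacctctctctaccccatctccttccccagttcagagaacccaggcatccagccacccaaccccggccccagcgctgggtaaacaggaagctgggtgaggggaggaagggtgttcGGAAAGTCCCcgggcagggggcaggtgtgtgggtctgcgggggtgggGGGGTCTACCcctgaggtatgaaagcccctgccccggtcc
Tnf: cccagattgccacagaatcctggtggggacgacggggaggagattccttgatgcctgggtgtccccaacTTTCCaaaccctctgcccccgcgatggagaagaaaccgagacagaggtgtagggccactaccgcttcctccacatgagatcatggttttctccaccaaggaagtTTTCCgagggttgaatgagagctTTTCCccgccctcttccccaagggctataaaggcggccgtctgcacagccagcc

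The searched motifs were AP-1 (TGANTCA), NFAT (GGAAA), CRE (TGACGTCA) and the NF-kB consensus, which can overlap an NFAT match. The Tnfsf11 window held 1 NF-kB and 1 NFAT match, the Ltb window 2 NF-kB matches and 1 NFAT match that overlaps the first of them, and the Tnf window 3 NFAT matches. Of the other windows found, those of Tnfsf8 and Lta held 1 and 2 NFAT matches and that of Tnfsf14 held 3 NFAT matches and 1 AP-1 match. Among all 32851 promoter windows of this length, 55.6% held the NFAT letters, 11.1% the NF-kB consensus, 6.75% the AP-1 letters and 1.55% the CRE letters. A match describes these letters and is not a measured site. Cd70 and Cd40lg were not in the promoter table.

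Kidney was compared with spleen first, since every mouse gave both organs. Tnfsf11, whose product RANKL drives osteoclast formation and supports dendritic-cell survival through the receptor RANK, was higher in kidney. Its level was 237, 123, 302, 34.0 and 130 CPM in the kidneys of KO1, KO2, WT1, WT2 and WT3 and 41.1, 54.5, 64.2, 5.07 and 30.3 CPM in their spleens. Each kidney lay above the spleen of the same mouse, and WT2 was the lowest mouse in both organs, so the ranges of the organs overlapped. The fold was 4.30 (log2 2.11 ± 0.62 SE; edgeR adjusted p = 0.0344), with 5 of 5 mice higher in kidney by 1.18 to 2.75 on the log2 scale. In these sums a different mix of cells and a different level per cell cannot be told apart.

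The organ difference was common among genes. Of 11414 genes tested, 21.3% passed at an adjusted p under 0.05, 11.9% higher and 9.39% lower in kidney, and of the 8 ligands 1 passed in each direction. With the mouse as a block, 32.7% of genes passed, and Tnfsf11 gave log2 2.15 ± 0.16 SE (edgeR adjusted p = 8.19e-06). The Tnfsf11 call held in 10 of 15 settings. It was lost without KO1 (adjusted p = 0.140), without KO2 (adjusted p = 0.0917), without WT3 (adjusted p = 0.114), without clusters 0 and 2 (log2 2.00, adjusted p = 0.0736) and in the WT mice alone (log2 2.21, adjusted p = 0.206), always by edgeR. Among KO mice alone 11.7% of genes passed, Tnfsf11 among them (log2 2.02, adjusted p = 0.000112), and among WT mice alone 7.73% did.

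Tnfsf11 UMIs were also found in the clusters left out of the CD4+ T-cell sums, and the source of these UMIs (free RNA, doublets or expression) was not tested. The cluster led by kidney tubule genes, called tubule-led here, also had the myeloid marker Lyz2, the plasma-cell marker Jchain and Igha among its leading genes. Its markers averaged a log2 fold of 7.44 for kidney tubule and 7.14 for myeloid cells. What its cells are, in spleen above all, was not tested. In this cluster Tnfsf11 stood at 74.7 CPM in 32 kidney cells (28 UMIs, in 6 of the cells). It stood at 9.92 CPM in 34 spleen cells (3 UMIs, in 2 of the cells). The T-cell gene Cd3e, with UMIs in 13 of the 32 kidney cells, stood in the same cells at 163 and 132 CPM, against 1251 and 1497 CPM in the pooled CD4+ T cells of kidney and spleen, where Tnfsf11 stood at 155 and 46.2 CPM. Both clusters led by CD8 T-cell genes also held Cd4. Over both organs it stood at 356 CPM in cluster 10 and 146 CPM in cluster 13, with Cd8a at 252 and 122 CPM. Of Tnfsf11, cluster 10 held 48.2 CPM in kidney and 14.0 CPM in spleen. Cluster 13 held 4.11 CPM in kidney and 8.24 CPM in spleen, on 2 UMIs and 1 UMI. Kidney was thus the higher organ in the tubule-led cells and in cluster 10 and not in cluster 13, and their part in the difference was not tested. The summed CD4 T identity markers were lower in kidney, at 2790 to 2960 CPM in KO and 3454 to 3920 CPM in WT mice, than in spleen, at 3494 to 3849 and 4474 to 4743 CPM, and their part was not tested either.

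Ltb, which pairs with lymphotoxin alpha in the membrane trimer that binds the lymphotoxin beta receptor, was lower in kidney. It stood at 757, 577, 685, 662 and 663 CPM in kidney and at 913, 1100.2, 895, 832 and 893 CPM in spleen. Every spleen value lay above every kidney value. Ltb was 1.36-fold lower (log2 -0.45 ± 0.09 SE; edgeR adjusted p = 0.00626), in 5 of 5 mice, and 13 of 15 settings kept the call. The exceptions were the WT mice alone (edgeR adjusted p = 0.0700) and the sums without clusters 0 and 2 (edgeR adjusted p = 0.0560). Among cells thinned to 2000 UMIs, 55.6% to 62.0% of kidney cells and 72.1% to 80.1% of spleen cells of a mouse held an Ltb UMI. In the tubule-led cells the same shares were 32.3% of 31 kidney cells (95% Wilson interval 18.6 to 49.9) and 37.0% of 27 spleen cells (21.5 to 55.8), at median depths of 9346 and 6843 UMIs before thinning against 3282 to 3795 in the CD4+ T-cell sums.

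Tnf, the inflammatory cytokine that signals through Tnfrsf1a and Tnfrsf1b, stood at 102, 105, 137, 186 and 241 CPM in kidney and at 94.3, 58.4, 88.6, 107 and 165 CPM in spleen. Kidney exceeded spleen in 5 of 5 mice, although the ranges overlapped. The log2 difference of 0.59 ± 0.21 SE missed the threshold (edgeR adjusted p = 0.0696) and passed it with the mouse as a block (log2 0.59, edgeR adjusted p = 0.00151). Over the settings Tnf passed in 4 of 15. The tubule-led cells held 90.6 CPM of Tnf in kidney and 39.7 CPM in spleen, on 34 and 12 UMIs. Their part in the difference was not tested.

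Tnfsf8, the ligand of CD30, stood at 498, 210.4, 483, 15.7 and 133 CPM in kidney and at 150.1, 177, 279, 14.5 and 74.3 CPM in spleen. The mice differed more than the organs, with WT2 lowest in both. The tubule-led cells held 88.0 CPM of Tnfsf8 in kidney and 3.31 CPM in spleen, on 33 UMIs and 1 UMI. Their part was not tested. The log2 difference of 0.92 ± 0.81 SE did not pass (edgeR adjusted p = 0.445), while the fit with the mouse as a block gave 0.85 ± 0.19 SE (edgeR adjusted p = 0.00666). With 5 pairs the exact two-sided permutation test cannot give less than p = 0.062, the value it gave for Tnfsf11, Ltb, Tnf and Tnfsf8 among 24 exact tests run.

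Cd40lg, which binds CD40 on B cells and antigen-presenting cells, stood at 166, 138, 242, 62.0 and 91.8 CPM in kidney and at 101, 93.9, 75.9, 81.0 and 121 CPM in spleen. Kidney was above spleen in KO1, KO2 and WT1 and below it in WT2 and WT3. The log2 difference was 0.58 ± 0.31 SE (edgeR adjusted p = 0.204), and among KO mice alone it was 0.71 and passed (edgeR adjusted p = 0.00483). Lta, the soluble lymphotoxin and partner of Ltb, stood at 60.5, 31.6, 40.9, 9.08 and 21.8 CPM in kidney and at 28.8, 40.4, 40.2, 16.6 and 29.8 CPM in spleen, with overlapping organs (log2 0.02 ± 0.39 SE; edgeR adjusted p = 0.984).

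Tnfsf14, which binds HVEM (Tnfrsf14) and the lymphotoxin beta receptor, stood at 12.0, 13.5, 4.27, 5.70 and 4.99 CPM in kidney and at 10.3, 9.32, 5.30, 12.5 and 18.2 CPM in spleen. Kidney was above spleen in both KO mice and below it in the 3 WT mice, and the difference did not pass (log2 -0.64 ± 0.39 SE; edgeR adjusted p = 0.263). Cd70, the ligand of Cd27, rested on 1 to 35 UMIs a sum and lay between 0.952 and 3.43 CPM in every mouse and organ. An organ difference in Cd70 was not detectable at this depth (log2 -0.06 ± 0.38 SE; edgeR adjusted p = 0.935). The median log2 difference of the 8 ligands was 0.30, against -0.05 over all genes.

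**Figure D1:**
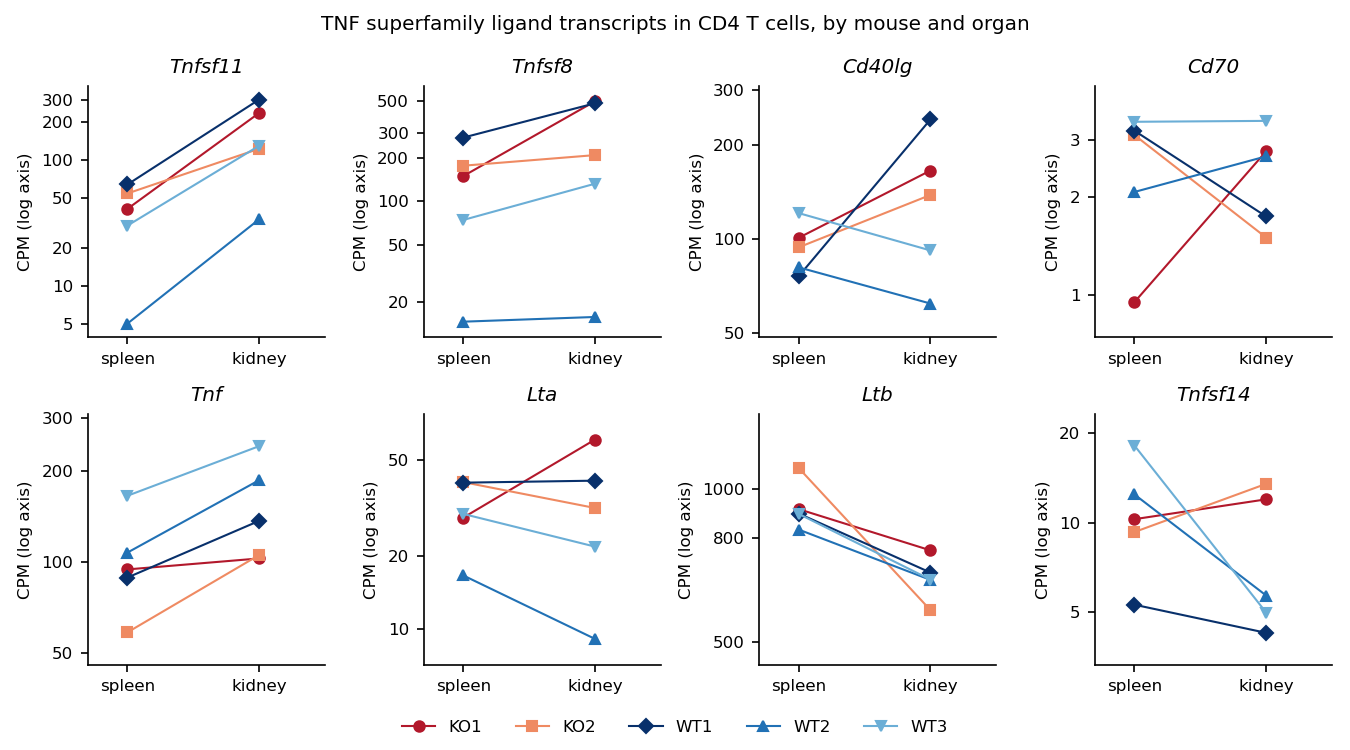
Levels of the 8 ligands in each mouse and organ, in TMM-scaled CPM on a log axis, with a line joining the organs of 1 mouse. Every line of Tnfsf11 rises from spleen to kidney and every line of Ltb falls, while those of Tnfsf14 part by genotype.

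**Figure D2:**
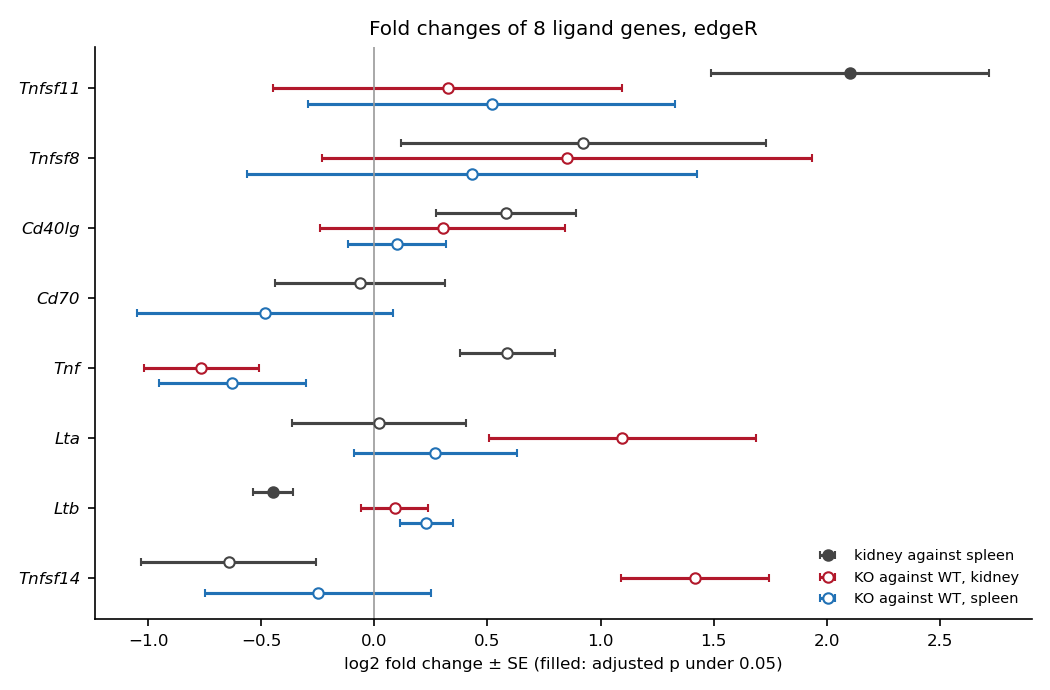
Fitted log2 differences of the ligands in the edgeR comparisons, with bars of 1 standard error. In kidney against spleen, Tnfsf11 at 2.11 and Ltb at -0.45 are the ligands past the adjusted threshold, and no ligand is past it in the genotype comparisons.

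Within cell classes, counts were summed where a mouse gave at least 20 cells of a class, and levels were scaled by the library total of that class. The ligands were left out of the genes used for clustering. Follicular helper-like cells, which carry markers of T cells that help B cells, held 704 and 496 CPM of Tnfsf11 in the kidneys of KO1 and WT1. In spleen the same class held 244, 223 and 240.4 CPM in KO1, KO2 and WT1, all below the kidney values. The class rests on its cluster, led by Sostdc1 and Il21 among others: cells chosen by a UMI of Cxcr5 instead averaged 147 CPM in kidney and 38.7 CPM in spleen. Regulatory T-like cells held 53.2 and 140 CPM in the kidneys of KO1 and WT1 and 43.2, 65.0, 46.0 and 52.3 CPM in the spleens of KO1, KO2, WT1 and WT3, so the organs overlapped. Cytotoxic-like cells held 9.98 and 31.1 CPM in the kidneys of WT2 and WT3, on 3 and 5 UMIs, and 4.52 to 18.4 CPM in spleen.

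Kidney exceeded spleen for Tnfsf11 in 14 of 14 pairs of a mouse and a class with sums in both organs. These pairs share mice, several rest on a few UMIs, and in 7 of the 14 the kidney level was above the 74.7 CPM of the tubule-led cells. The other 7 were at or below it, and whether they stand above free RNA was not tested. The same count was 9 of 14 for Tnfsf8, 7 for Cd40lg, 6 for Tnf, 6 for Lta, 4 for Cd70, 3 for Ltb and 1 for Tnfsf14. The planned test within a class was run where at least 2 mice of 1 genotype gave both organs, which held for cytotoxic-like cells of WT2 and WT3, mostly of cluster 1. There 0.19% of 8402 genes differed between organs, no ligand was among them, and Tnf had the smallest adjusted p (log2 0.55 ± 0.19 SE; edgeR adjusted p = 0.319).

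A fit over every sum of a class, with genotype as covariate, was added after the data were seen. Its sums share mice, which the fit does not model. In follicular helper-like cells, with 2 kidney and 3 spleen sums, 2.89% of 6639 genes passed, and 2 of the 7 ligands tested did. Tnfsf11 was higher in kidney (log2 1.42 ± 0.18 SE; edgeR adjusted p = 0.000796), with every kidney value above every spleen value. Lta was also higher in the kidney cells of this class, at 202 and 416 CPM against 88.0 to 159.5 CPM in spleen (log2 1.53 ± 0.24 SE; edgeR adjusted p = 0.00278), where over all CD4+ T cells its log2 difference was 0.02 ± 0.39 SE. Leaving out each sum in turn gave log2 1.13 to 1.70 for Tnfsf11 and 1.22 to 1.825 for Lta. These fits rest on too few sums to show that the calls are stable. Cd40lg (log2 0.53), Tnfsf8 (0.38), Tnf (0.07), Ltb (-0.02) and Tnfsf14 (-1.06) did not pass. In regulatory T-like cells, with 2 kidney and 4 spleen sums, 3.49% of 6957 genes passed and none of the 6 ligands tested did (3 at an unadjusted p under 0.05). Tnfsf11 gave log2 1.03 ± 0.33 SE there (edgeR adjusted p = 0.106). That value rested on the kidney of WT1: without it the difference was log2 0.0069, and without the kidney of KO1 it was 1.71. Each of these 2 fits leaves 1 kidney sum. Without the spleen of KO2, Tnfsf11 passed (edgeR adjusted p = 0.0213).

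Cluster 2, found almost only in kidney (1519 of its 1544 cells), has Tnfsf11 among its leading genes next to Ifitm1, Fosl2 and Crem, and it held no named class. Its kidney level of Tnfsf11 was 216, 154, 323, 139 and 514 CPM in the 5 mice, each above the tubule-led cells. It took 56.9% to 64.2% of the kidney cells of KO1, KO2 and WT1 and 5.17% and 9.58% of those of WT2 and WT3. It held 58.5%, 68.3%, 76.3%, 29.3% and 46.0% of the kidney Tnfsf11 UMIs of the 5 mice. Cluster 0, another kidney cluster without a name, took 82.5% of the kidney cells of WT2 and 76.6% of those of WT3, and its Tnfsf11 lay between 0 and 61.6 CPM. The mice with many cluster 2 cells were both KO mice and WT1, and a link of this split to the genotype was not tested. A class was not compared across organs for clusters 0 and 2, since spleen gave 12 and 25 cells of them.

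The other ligands had their own order of classes. Their follicular helper-like levels rest on the cluster. With cells chosen by a UMI of Cxcr5, 14 levels of this class moved by more than the spread between mice and 2 by less. Tnfsf8 averaged 1247 CPM in kidney and 998 CPM in spleen follicular helper-like cells. Cd40lg averaged 366 ± 75.1 CPM (SD, n = 2) and 264 ± 22.5 CPM (SD, n = 3) in the same class, its highest in each organ, next to cluster 7 at 210.2 ± 105 CPM (SD, n = 2) and 239.6 ± 79.8 CPM (SD, n = 4), from which it did not differ beyond the spread in spleen. Lta averaged 309 ± 151 CPM (SD, n = 2) in kidney follicular helper-like cells, against 54.8 ± 16.0 CPM (SD, n = 2) in kidney regulatory T-like cells, the next of the named classes. Cluster 14, which has no name, held 61.0 CPM of Lta in the kidney of 1 mouse. B-cell help is the known task of follicular helper cells, which use Cd40lg for it.

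Ltb was highest in regulatory T-like cells, at 1281 and 1255 CPM in the kidneys of KO1 and WT1 and at 1668, 1536, 1521 and 1881 CPM in the spleens of KO1, KO2, WT1 and WT3. Each of these spleens lay above each of these kidneys. Tnf was highest in kidney in cytotoxic-like cells, at 216 and 236 CPM in WT2 and WT3, against 139 and 166 CPM in the spleens of the same mice. Cluster 0 in kidney followed with 185 ± 63.8 CPM (SD, n = 4) of Tnf, which overlapped the cytotoxic-like cells, and kidney cells chosen by a UMI of Gzmb averaged 132 CPM. Tnfsf14 had its highest means in cluster 14, led by Il23r and Il17a. They were 43.6 ± 15.8 CPM (SD, n = 2) in spleen and 52.3 CPM in the kidney of 1 mouse. Spleen cluster 5 followed at 29.9 ± 11.3 CPM (SD, n = 5). The markers of cluster 14 scored highest for gamma-delta T cells (mean log2 fold 1.613), and its cells stayed in the CD4+ T-cell sums. It took 3.602% and 7.5% of the kidney cells of KO1 and KO2. It took 0.4261% and 0.3229% of those of WT1 and WT3, and no cell of the WT2 kidney. In spleen it took 1.687% and 3.542% of KO cells and 0.1873% to 0.2565% of WT cells. Tnfsf8 had no UMI in the kidney cytotoxic-like cells of WT2 and WT3 and averaged 7.90 CPM in those of spleen.

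**Figure D3:**
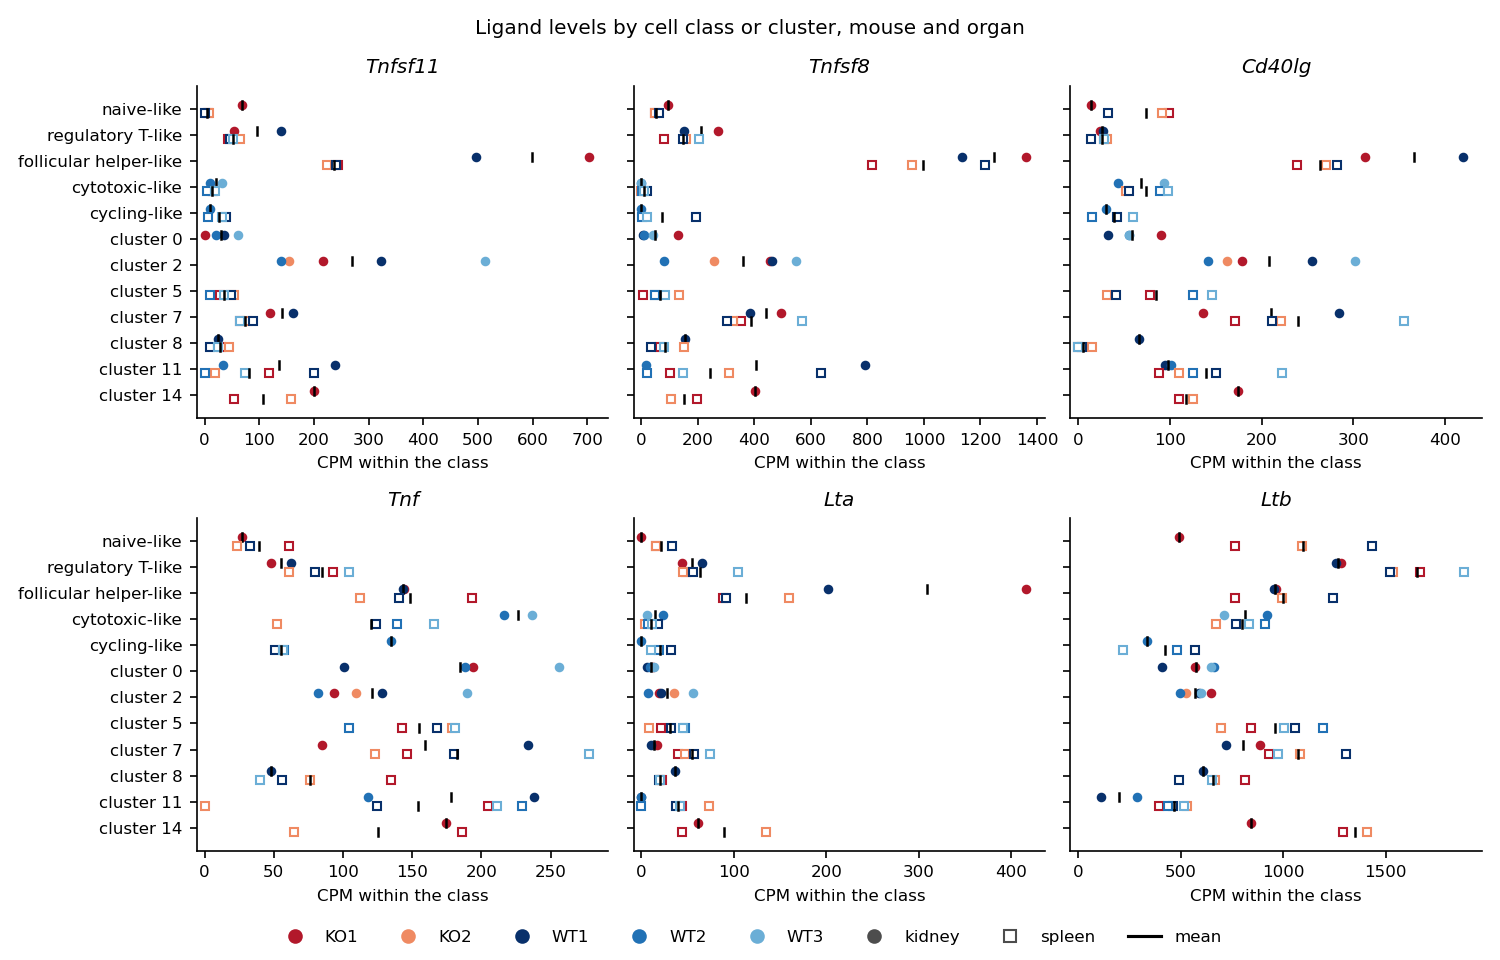
Levels of 6 ligands in CPM within each cell class or cluster, each point a mouse with at least 20 cells of it (filled circles kidney, open squares spleen, black bars means). Tnfsf11 in follicular helper-like cells lies at 496 and 704 CPM in kidney against 223 to 244 CPM in spleen, and Ltb is highest in regulatory T-like cells.

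**Figure D4:**
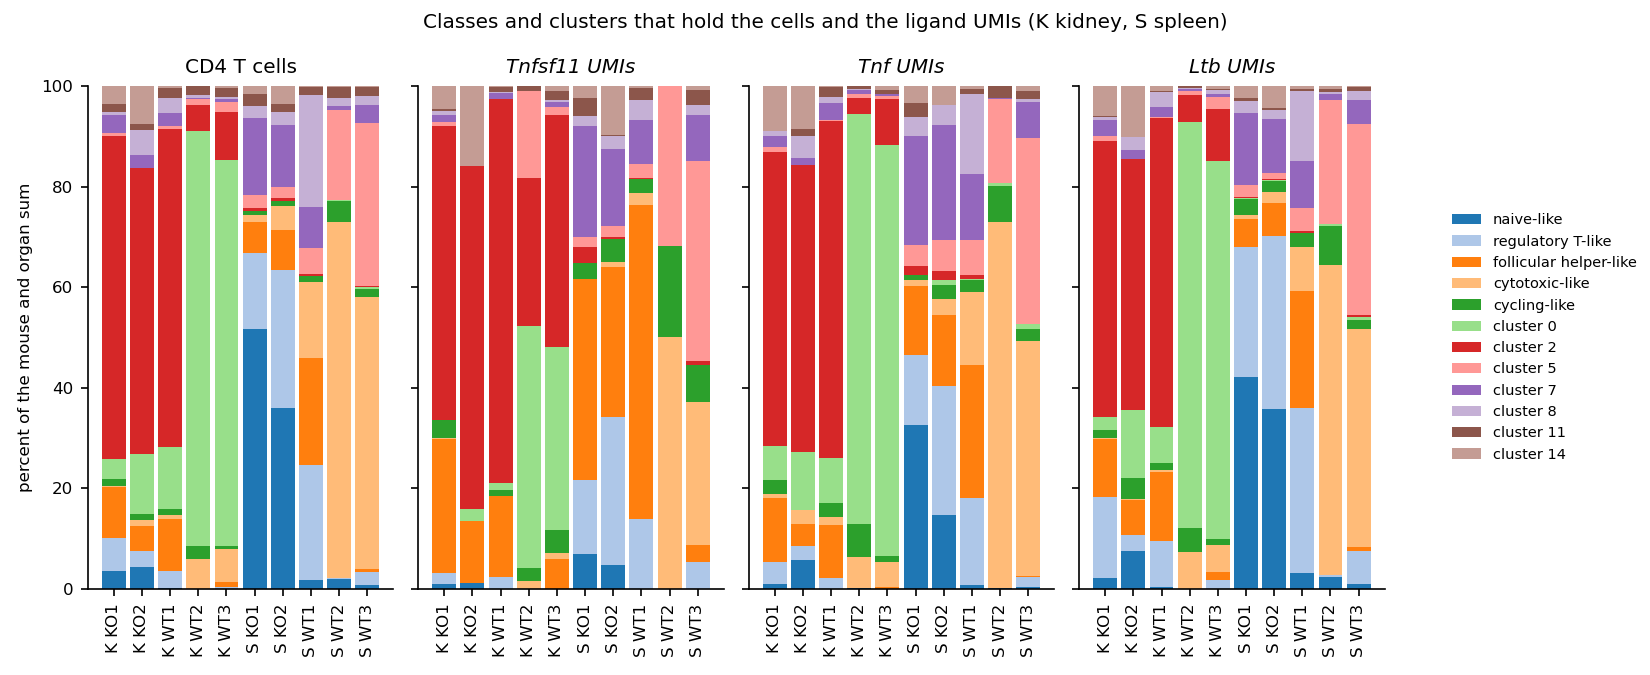
Share of the cells and of the Tnfsf11, Tnf and Ltb UMIs of each mouse and organ (K kidney, S spleen), in percent, that each cell class or cluster holds. In the kidneys of KO1, KO2 and WT1 cluster 2 holds most Tnfsf11 UMIs, and in those of WT2 and WT3 cluster 0 takes most cells.

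In single cells, the share of cells with a Tnfsf11 UMI was 6.08% to 34.9% in kidney (median 24.4%) and 2.17% to 14.7% in spleen (median 9.36%). After thinning each cell to 2000 UMIs it was 4.09% to 27.2% in kidney (median 13.9%) and 1.05% to 10.3% in spleen (median 5.48%). In the tubule-led cells the thinned share was 9.68% of 31 kidney cells (95% Wilson interval 3.35 to 24.9). It was 0 of 27 spleen cells, which allows a share of up to 11.1%. The source of the UMIs in these cells was not tested. The thinned kidney share of WT2, at 4.09%, lay below the tubule-led one, those of KO1, KO2 and WT3 lay within its interval, and that of WT1, at 27.2%, lay above it. No spleen share exceeded 11.1%, a limit that rests on 27 cells and so is wide. Whether the spleen shares and the kidney share of WT2 stand above free RNA was not tested. Of the clusters led by CD8 T-cell genes, cluster 10 held a Tnfsf11 UMI in 6.82% of thinned cells (4.62 to 9.94) and cluster 13 in 1.48% (0.407 to 5.24).

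In the 9 sums with enough cells holding a Tnfsf11 UMI, the thinned cells with one more often held a Tnfsf8 UMI as well, in 9 of 9 sums, with shares of 5.66% to 61.7% against 1.53% to 36.5% in cells without. The 9 sums include 4 spleens and the kidney of WT2, whose Tnfsf11 shares were not tested against free RNA. The value of 5.66% is 3 of 53 cells of that kidney. Cd40lg was likewise found more often in cells with Tnfsf11 in 8 of 9 sums. Lta was found more often in cells with a Tnf UMI in 10 of 10 sums, at 2.33% to 10.3% against 1.58% to 5.83%. These counts describe cells of 1 library each and carry no test.

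The genotype comparison asked how targeting Ezh2 bears on the ligands. In kidney, 0% of 10218 genes passed by edgeR (929 at an unadjusted p under 0.05, and 26 by DESeq2). Of the 7 ligands tested, Tnfsf14 had the smallest p. Its kidney level was 12.0 and 13.5 CPM in the KO mice, on 26 and 9 UMIs. In the WT mice it was 4.27, 5.70 and 4.99 CPM, on 22, 32 and 16 UMIs, without overlap. The difference was log2 1.42 ± 0.33 SE (edgeR p = 0.00350, adjusted p = 0.520, and exact two-sided permutation p = 0.1, the smallest that 2 against 3 allows). The tubule-led kidney cells held 7.998 CPM of Tnfsf14 on 3 UMIs, above every WT kidney and below both KO kidneys. Whether the kidney levels of Tnfsf14 stand above free RNA was not tested. Cluster 14, highest in Tnfsf14, took more of the KO than of the WT kidney cells, and its part was not tested. Tnf lay lower in both KO kidneys than in every WT kidney (log2 -0.77 ± 0.26 SE; edgeR adjusted p = 0.520; exact permutation p = 0.2). Without a filter on low counts 2% of 17852 genes passed, Tnf among them (log2 -0.81, edgeR adjusted p = 0.0153). The remaining log2 differences were 1.10 for Lta, 0.85 for Tnfsf8, 0.32 for Tnfsf11, 0.30 for Cd40lg and 0.09 for Ltb, with overlapping groups.

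WT1 set much of this. In the kidney WT1 had 302 CPM of Tnfsf11, 483 of Tnfsf8 and 242 of Cd40lg, where WT2 and WT3 had 34.0 to 130 CPM, 15.7 to 133 CPM and 62.0 to 91.8 CPM. Without WT1, 11.2% of 9818 genes passed in kidney, and 4 of the 7 ligands did, namely Tnfsf14 (log2 1.30, edgeR adjusted p = 0.0439), Cd40lg (1.12, adjusted p = 0.00858), Lta (1.86, adjusted p = 0.0184) and Tnf (-0.95, adjusted p = 0.00826). With WT1 as the only WT mouse, a setting added after the data were seen, no ligand passed and Tnfsf11, Tnfsf8 and Cd40lg turned to log2 -0.60, -0.32 and -0.57. Summed markers of CD8 T cells in the CD4+ T-cell sums were 76.9 and 79.6 CPM in KO kidneys and 12.7 to 18.8 CPM in WT kidneys, and 21.2 and 56.1 against 8.06 to 9.40 CPM in spleen, both markers being detected in every sum. The CD4 T identity markers were lower in the KO mice of each organ, by the ranges given above. Summed endothelial markers were 58.4 and 63.4 CPM in KO against 15.4 to 54.8 CPM in WT kidneys, and 89.7 and 93.2 against 21.7 to 59.6 CPM in spleen, with 2 or 3 of the 4 markers at 0 in each sum. The part of these markers in the ligand differences was not tested.

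In spleen 0.274% of 11674 genes passed by edgeR (1968 at an unadjusted p under 0.05, and 680 by DESeq2), and no ligand did. Ltb was higher in both KO spleens, at 913 and 1100.2 CPM, than in the WT spleens, at 895, 832 and 893 CPM, but the difference did not pass (log2 0.23 ± 0.12 SE; edgeR adjusted p = 0.388; exact permutation p = 0.1). Tnf gave log2 -0.63 ± 0.33 SE (edgeR adjusted p = 0.398), Tnfsf11 0.52 ± 0.81 SE (adjusted p = 0.787) and Tnfsf8 0.43 ± 0.99 SE (adjusted p = 0.860). Without WT1, 20.2% of genes passed and Tnfsf8 was the ligand among them (log2 1.85, edgeR adjusted p = 0.0490). With WT1 as the only WT mouse 9.81% passed and Tnfsf8 had the opposite sign (log2 -0.74, edgeR adjusted p = 0.00533), so its spleen direction depended on which WT mice were used.

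Within spleen regulatory T-like cells of KO1, KO2, WT1 and WT3, 0.0916% of 8737 genes passed between genotypes and no ligand did. Cd40lg gave log2 0.86 ± 0.36 SE (edgeR adjusted p = 0.913) and Tnfsf11 0.23 ± 0.24 SE (edgeR adjusted p = 0.998).

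The interaction asked whether the genotype difference differed between organs, and 0% of 11779 genes passed by edgeR (437 at an unadjusted p under 0.05, and 3 by DESeq2). Tnfsf14 gave log2 1.64 ± 0.65 SE and did not pass (edgeR adjusted p = 0.9999). Kidney exceeded spleen for Tnfsf14 in both KO mice, and spleen exceeded kidney in all 3 WT mice.

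The receptors through which these ligands act were measured in the same cells. Tnfrsf1b, the TNF receptor that T cells use for costimulation, was higher in kidney (log2 1.34 ± 0.18 SE; edgeR adjusted p = 0.000742). It stood at 221, 164, 239, 233 and 202 CPM in kidney against 75.0, 104, 114, 57.0 and 73.8 CPM in spleen, with no overlap. Cd27, the receptor of Cd70, was also higher in kidney (log2 0.33, edgeR adjusted p = 0.04995), at 213 to 392 CPM against 177 to 269 CPM. Tnfrsf11a, which encodes RANK, was found on 0 to 7 UMIs a sum and Ltbr on 0 to 6, so neither was tested. Tnfrsf8 lay between 0 and 9.47 CPM, Tnfrsf14 between 3.01 and 10.4 CPM and Cd40 between 0 and 3.84 CPM over all sums.

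Of 25 receptors 20 were tested between organs, and 25% of these passed, against 21.3% of all genes. Tnfrsf23 (log2 1.60), Tnfrsf12a (1.48), Tnfrsf1b and Cd27 were higher in kidney and Tnfrsf13b (-0.92) was lower, each past the edgeR threshold. Tnfrsf23 has the relatives Tnfrsf22 and Tnfrsf26, and whether likeness between these genes affected its count was not tested. Of 10 other ligands, 5 were tested and Fasl, the death ligand of Fas, was higher in kidney (log2 1.39 ± 0.28 SE; edgeR adjusted p = 0.00646). The median log2 difference was -0.23 over these ligands and 0.15 over the receptors.

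Among 29 adaptors, NF-kB components and shedding proteases, 4 were higher and 2 lower in kidney, 20.7% of the list, a share near that of all genes. Traf4 (log2 1.62), the NF-kB inhibitor Tnfaip3 (0.68), the noncanonical kinase Map3k14 (0.65) and Nfkbib (0.35) were higher, and Tradd (-0.60) and Traf2 (-0.51) were lower. Of 14 NFAT, AP-1, Egr and Nr4a factors, which respond to T-cell receptor signalling, 7 were higher and 3 lower, 71.4% of the list. Fosl2 (log2 2.91), Nr4a3 (2.17), Fosb (1.06), Nr4a1 (1.05), Jund (0.80) and Nfatc1 (0.53) were among the higher ones, and Egr2 (-1.66), Jun (-1.65) and Fos (-1.34) were lower. No gene of these 4 lists passed in the genotype comparisons or the interaction. The smallest edgeR adjusted p values were 0.442 for Fas in kidney (log2 0.88) and 0.0597 for Tnfrsf12a in spleen (log2 2.03).

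**Figure D5:**
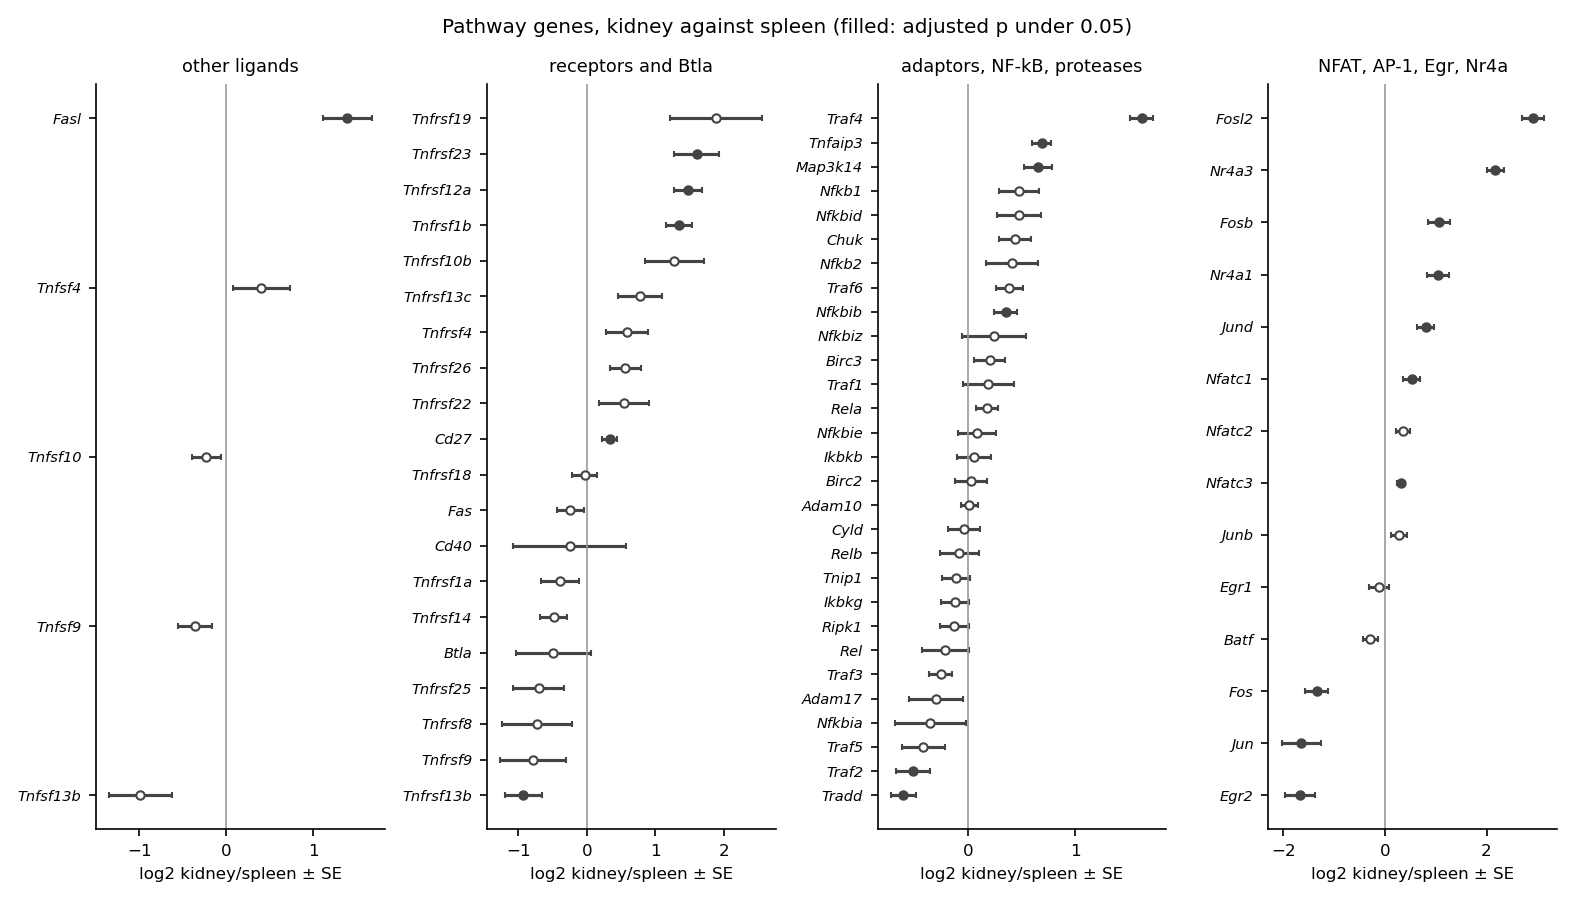
Log2 differences between kidney and spleen of the tested genes in the 4 lists of related genes, 1 panel a list, with bars of 1 standard error and filled points where the edgeR threshold was passed. Fosl2 at 2.91 and Nr4a3 at 2.17 lead the panel of transcription factors.

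Over the 10 sums, the genes with levels most like Tnfsf11 were Cish, Fndc3a and Ust (Pearson r of log2(CPM + 1) 0.96, 0.96 and 0.95, among 7925 genes). Those most like Tnfsf8 were Igfbp7, Inf2 and Nrp1 (r 0.97 each), and those most like Tnf were Slc45a4, Cdk12 and Plekhm1 (r 0.97, 0.95 and 0.95). Lta was most like Zfp36l1, Mfhas1 and Tiam1 (r 0.94, 0.93 and 0.93), Ltb most like Xrcc4, Phf14 and Thoc5 (r 0.97, 0.96 and 0.96), and Cd40lg most like Ptpn12, Gtf2a1 and Orai2 (r 0.87, 0.86 and 0.86). The sums share mice, organs and depth, so these values only describe. Tnfsf14 and Cd70 were below the level of 10 CPM set for this search.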

How the data were processed

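The deposited matrices, 1 per organ, hold the authors' whole UMI counts per gene and antibody tag, with no normalization. The submitters' processing notes name the mm10 build (GRCm38), Seurat 5.0.1 and Cell Ranger 7.1.0, with no further settings. The members and gene lists were chosen with earlier results of these data known.

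Blocks of barcodes were given to mice by their leading tag and the deposited key, and the 13 cells with a different leading tag were dropped. Cells with at least 200 genes and under 10% mitochondrial UMIs were kept. No doublet caller was run, so doublets of 1 mouse remain. Clustering used the Leiden method (python-igraph 0.11.9, scikit-learn 1.9.0, 2000 variable genes, 30 components, 15 neighbours, resolution 1). It left out 86 genes, the members and the listed other ligands, receptors, adaptors, NF-kB components, shedding proteases and transcription factors. Marker genes of the classes outside these lists were not left out, so the clusters were not formed independently of the markers that named them. Names ending in "-like" needed 3 or more raised markers of the class, averaging a log2 fold of 1 or more, with 1 or more in the top 10 genes of the cluster. This scoring was chosen once counts had been seen, and the study itself may name the cells differently.

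Counts of CD4+ T cells were summed per mouse and organ and tested with edgeR 4.0.16 (R 4.3.3, limma 3.58.1) by the quasi-likelihood method, with TMM scaling, filterByExpr, Benjamini-Hochberg adjustment over all genes and a threshold of 0.05. The comparisons were KO against WT in each organ, the interaction, and kidney against spleen with genotype as covariate. The steps were tested on simulated counts with known changes. DESeq2 1.42.0, RLE scaling, no filter, other cell selections, other cell limits (500 genes, 5% mitochondrial UMIs) and leaving out each mouse were alternatives. Exact permutation tests and 95% Wilson intervals used scipy 1.17.1, and intervals cover counting error only.

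Each mouse gave both organs by the tag key, which pairs the sums. Deviations from the group means over 7946 genes correlated between organs at 0.756 in WT1, 0.737 in WT2 and 0.517 in WT3, and at 0.00415 in KO1 and KO2. The fit with the mouse as a block was an alternative. Genes were named by a rule: all 8 members, the receptors of the members, and from each list the called genes of largest log2 fold, up to 6 a direction, or otherwise those of smallest p, of which the text gives the smallest in each organ.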

Additional observations from a re-analysis of the deposited data

Results flagged for a closer look

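The log2 difference of Ltb between kidney and spleen was -0.931 in KO2, where the other mice lay nearer to 0. That mouse stood apart by Dixon's test for 5 values, run on 8 ligands, and chance flags about 1 in 20 groups. Ltb in the KO2 kidney rested on 384 UMIs of the shallowest sum, of 160 cells. The KO2 spleen had the highest Ltb level of all sums, at 1100.2 CPM. What set this mouse apart was not tested.

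Cells of the second day, which the report did not use because the same barcodes stood under several mice and both organs, held UMIs of all 8 ligands. Over 2392 distinct cells the levels were 93.6 CPM for Tnfsf11, 244 CPM for Tnfsf8, 11.8 CPM for Tnfsf14, 2.92 CPM for Cd70, 141 CPM for Cd40lg, 126 CPM for Tnf, 16.9 CPM for Lta and 640.5 CPM for Ltb. Each was above 0.313 CPM, the limit that a count of 0 allows (3 counts of the total). These cells belong to no group here.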

How the results depend on the processing

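Between kidney and spleen, Tnfsf11 kept its direction in all 15 settings (log2 1.90 to 2.28) and its call in 10, and Ltb kept its direction in 15 and its call in 13. The count of genes called was 3849 with the mouse as replicate block, 1253 in KO mice only, 843 in WT mice only, 473 without clusters 0 and 2, and 1347 to 2654 without 1 mouse. The direction turned for Tnfsf14 in KO mice only (log2 0.38), for Cd70 without clusters 0 and 2 (1.75), and for Lta with all day-1 cells (-0.14), without naive-like and cycling-like cells (-0.049), with the replicate block (-0.0098) and in WT mice only (-0.26). Without 1 mouse, Cd70 ran from -0.27 to 0.14 and Lta from -0.28 to 0.18.

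For KO against WT in kidney, the count of genes called was 26 by DESeq2, 357 without a filter on low counts, 29 with WT1 as the only WT mouse, and 0 to 1097 without 1 mouse, the highest being without WT1. Tnf passed without the filter (log2 -0.81, edgeR adjusted p = 0.0153), and so did Ezh2 (edgeR adjusted p = 0.01845 in kidney and 0.0474 in spleen), which in spleen also passed by DESeq2 (adjusted p = 0.0162). With WT1 as the only WT mouse Tnfsf11, Tnfsf8 and Cd40lg turned to log2 -0.60, -0.32 and -0.57, and with all day-1 cells Ltb turned to -0.015. Without 1 mouse, Tnfsf11 ran from -0.24 to 1.33, Cd40lg from -0.046 to 1.12 and Ltb from -0.12 to 0.23.

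In spleen the count was 680 by DESeq2, 462 without a filter, 0 without naive-like and cycling-like cells, 1189 with WT1 as the only WT mouse, and 0 to 2273 without 1 mouse. With WT1 as the only WT mouse Tnfsf11, Tnfsf8, Tnfsf14 and Lta turned to log2 -0.40, -0.74, 0.90 and -0.19. Without naive-like and cycling-like cells Tnfsf14, Cd70 and Cd40lg turned to 0.27, 0.49 and -0.0038. Without 1 mouse, Tnfsf8 ran from -0.085 to 1.85, Tnfsf14 from -0.65 to 0.20, Cd70 from -1.57 to 0.10 and Cd40lg from -0.040 to 0.33.

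The interaction called 3 genes by DESeq2, 2 without a filter, 2 with the replicate block and 0 to 3 without 1 mouse. Without naive-like and cycling-like cells Tnfsf8 and Cd70 turned to log2 -0.060 and -0.63. Without 1 mouse, Tnfsf11 ran from -0.96 to 0.34, Tnfsf8 from -0.46 to 0.97, Cd70 from -0.79 to 1.71, Cd40lg from -0.26 to 1.10, Tnf from -0.52 to 0.27, Lta from -0.0094 to 1.36 and Ltb from -0.48 to 0.12. The replicate block changed the calls of Tnf and Tnfsf8 between organs and of no other ligand.

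Tnfsf11 in spleen follicular helper-like cells was 236 CPM by cluster and 38.7 CPM in cells with a UMI of Cxcr5. At Leiden resolution 1.5, 57 class levels moved by less than the spread between mice and 7 by more. Cells chosen by a UMI of 1 marker moved more of them. With Cxcr5, 14 levels moved by more than the spread and 2 by less, and with Ccr7 6 and 2. The same counts were 8 and 8 with Foxp3, 7 and 9 with Gzmb, and 3 and 5 with Mki67. Over every sum of a class, leaving out 1 sum gave 121 to 259 genes called between organs in follicular helper-like cells (192 with all, the lowest without the spleen of KO2) and 114 to 271 in regulatory T-like cells (243 with all, 147 without the kidney of KO1 and 114 without that of WT1). These fits and the settings without clusters 0 and 2 and with WT1 as the only WT mouse were added after the data were seen. Where a kidney sum was left out of a class, 1 kidney sum remained, so those counts cannot show stability. Where a setting changed a value, the cause was not tested. Leaving out a mouse in the planned tests within classes was not run. With 2 KO and 3 WT mice, 1 mouse decided several genotype values, and Cd70, with at most 35 UMIs a sum, was limited by depth.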
